A study of Homo sapiens with 36 samples.

Results

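The BCL2 family decides whether a cell starts apoptosis through its mitochondria, and 10 of its genes were followed through RNA-seq of sensitive and platinum-resistant ovarian cancer cells. The genes were a given list, matched by symbol to the gene identifiers of the count table, and they are 10 of its 57820 genes. By role they are the BH3-only genes *BBC3*, *PMAIP1*, *BCL2L11*, *BID* and *BIK*, the effectors *BAX* and *BAK1*, and the anti-apoptotic genes *BCL2*, *BCL2L1* and *MCL1*. The 36 libraries came from A2780 cells, a human ovarian cancer line, and made up 12 conditions of 3 libraries each. The parental, sensitive cells are called wt. The resistant cells, called cis, were derived from the parental line by long exposure to cisplatin. A population that grew out of the cis cells when serine and glycine were withheld is called cis SSP. Each of these was grown in complete medium or in medium without serine and glycine (-SG), which was made in the laboratory with dialyzed serum, and each was left untreated or given carboplatin (carbo), a platinum drug that crosslinks DNA. Whether the complete medium of the sequenced cells was made the same way was not given. The labels write the carboplatin dose as 6 M, and its unit is not stated otherwise for the sequenced cells; the methods give day 5 for experiments in general, without naming these libraries. Every cis and cis SSP library thus also carries the selection by cisplatin, each line is a single line, and the study describes its 3 libraries per condition as technical replicates. The p-values therefore measure the spread between these libraries and not between independent cultures.

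As background, BAX and BAK proteins form pores in the outer mitochondrial membrane, through which cytochrome c leaves and starts the caspases. BCL2, BCL-XL (the product of *BCL2L1*) and MCL1 hold them in check. The BH3-only proteins relay stress to both sets: PUMA (*BBC3*) and NOXA (*PMAIP1*) are induced after DNA damage and also by the integrated stress response, BIM (*BCL2L11*) answers to loss of growth signals, BID is cut by caspase-8 below the death receptors, and NOXA binds MCL1 in preference to the other guardians. Much of this control acts on the proteins, whereas the values here are messenger RNA.

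The libraries held 13074937 to 20441582 counts on genes. The first cis SSP library (library 25) and the second cis SSP -SG library (library 32) stood apart from the others of their conditions. The mean chi-square of counts between 2 libraries of a condition reached 122.8, against a lowest value of 1.20 over the 36 pairs. The comparisons of cis SSP cells are therefore given with and without these libraries. Library 11, of wt -SG carbo, also differed from the other 2 of its condition. Its mean chi-square was 25.6 and 24.6 with them, against 1.20 between those 2. Libraries 23 and 24, 2 of the 3 cis -SG carbo libraries, had 14.9% to 17.9% of their reads on no feature, against at most 9.31% elsewhere. Of the markers of ovarian and epithelial cells, *PAX8*, *MUC16* and *CDH1* were at or near 0 in every library (at most 0.61, 0.17 and 0.32 CPM, a gene's counts scaled to the same total in every library), and *EPCAM* reached at most 2.26. *PAX2* was at 164 to 204 CPM in wt cells and at most 0.11 in cis cells and 0.22 in cis SSP cells, whereas *KRT18* was at most 7.47 in wt, 15.9 to 44.1 in cis and 7.24 to 16.9 in cis SSP cells. *KRT8* did not follow *KRT18*, at 0.16 to 6.45 in wt, 0.38 to 2.79 in cis and 0.42 to 1.58 in cis SSP cells. *WT1* was at most 0.05 in wt, 1.42 in cis and 0.79 in cis SSP cells. The leukocyte marker *PTPRC* did not exceed 1 count, and the fibroblast gene *COL1A1* was at 96.5 to 991 CPM in wt cells, 1.66 to 4.65 in cis and 8.26 to 19.5 in cis SSP cells. *DCN*, the other fibroblast gene, stayed under 1.02 in wt and cis and was at 19.7 to 26.9 in cis SSP cells. The part of these differences in the results was not tested.

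In GRCh37 the effectors are *BAX* (ENSG00000087088, chr19:49458072-49465055) and *BAK1* (ENSG00000030110, chr6:33540324-33548070). The BH3-only genes are *BBC3* (ENSG00000105327, chr19:47724079-47736023), *PMAIP1* (ENSG00000141682, chr18:57567228-57571537), *BCL2L11* (ENSG00000153094, chr2:111876955-111926021), *BID* (ENSG00000015475, chr22:18216904-18257536) and *BIK* (ENSG00000100290, chr22:43506756-43525718). The guardians are *BCL2* (ENSG00000171791, chr18:60790579-60987361), *BCL2L1* (ENSG00000171552, chr20:30252255-30311792) and *MCL1* (ENSG00000143384, chr1:150533371-150552214).

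The genes differed widely in abundance. Levels of different genes were set side by side per kilobase of exon. This scale is rough, since the length joins all annotated exons of a gene and not those of the transcripts expressed. On it *MCL1* was the most abundant in untreated wt cells, with 106 to 107 CPM per kb in its 3 libraries. *BAX* followed with 61.5 to 66.7. *BCL2L1* (10.7 to 10.8), *BAK1* (8.71 to 9.65), *BBC3* (8.89 to 9.28) and *BID* (7.49 to 7.91) formed a middle group, in which *BAK1* and *BBC3* overlapped. *BCL2* (0.72 to 0.88), *PMAIP1* (0.61 to 0.82), *BCL2L11* (0.48 to 0.65) and *BIK* (0.06 to 0.22) were the least abundant, and the first 3 of these overlapped in part. *BIK*, a BH3-only gene whose protein sits on the endoplasmic reticulum, had only 1 to 21 counts per library, and it passed the filter on low counts in 5 of the 15 comparisons, those that include its higher conditions. In untreated cis cells the order changed in the middle: *PMAIP1* reached 7.28 to 8.04 CPM per kb and so overlapped with *BAK1* at 7.34 to 7.97.

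**Figure D1:**
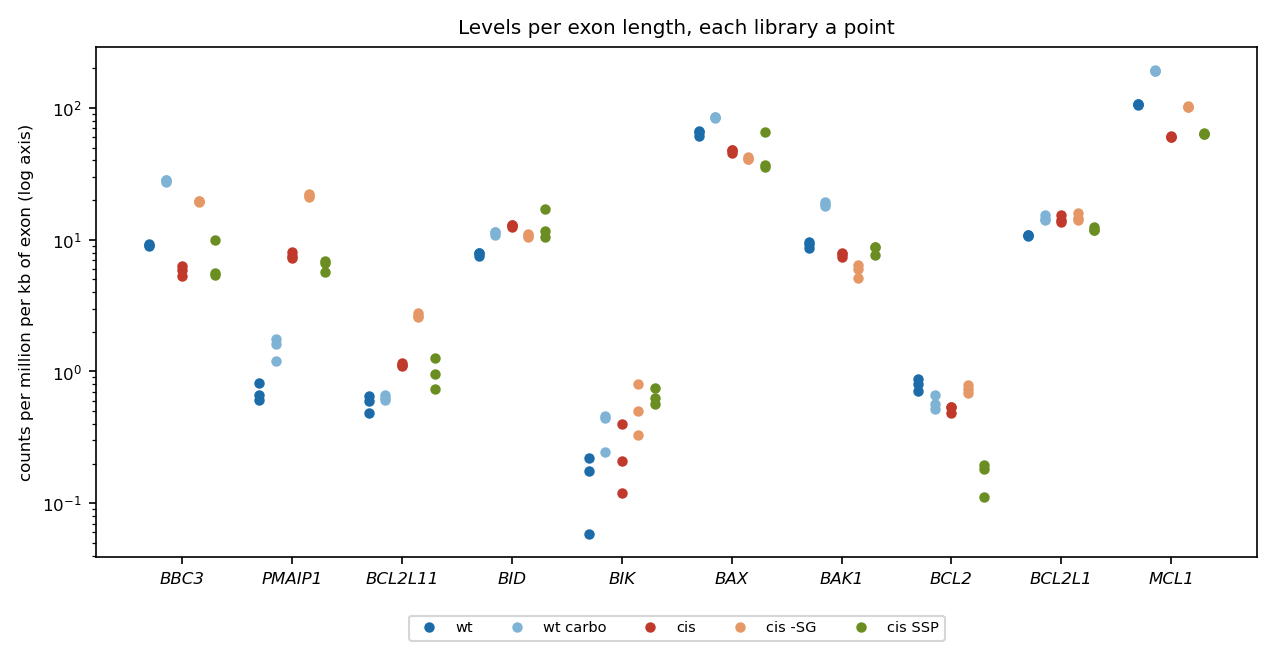
Levels of the 10 BCL2 family genes in CPM per kb of exon (log axis) in 5 of the 12 conditions, each point a library. *MCL1* and *BAX* stand above the others in each condition shown, *PMAIP1* moves from under 1 in untreated wt cells to over 20 in cis cells without serine and glycine, and *BCL2* is lowest in cis SSP cells.

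Over the 12 conditions, the mean of *PMAIP1* ran from 1.13 CPM in wt -SG to 47.6 in cis -SG, a ratio of 42.1. The other ratios of the highest to the lowest mean were 7.40 for *BIK*, 4.98 for *BCL2* and *BCL2L11*, 4.82 for *BBC3*, 3.54 for *BAK1*, 3.19 for *MCL1*, 2.12 for *BAX*, 1.89 for *BID* and 1.46 for *BCL2L1*. *MCL1* and *BBC3* peaked in wt carbo, and both were lowest in untreated cis cells. *BCL2L11*, like *PMAIP1*, was lowest in wt -SG and highest in cis -SG. When the 12 conditions were ordered by their means, 7 of 11 neighbouring pairs of *PMAIP1* and 8 of *MCL1* had libraries that did not overlap, as did 4 of *BAX* and *BCL2*, 3 of *BBC3*, *BAK1* and *BCL2L11*, 2 of *BID*, 1 of *BCL2L1* and none of *BIK*. For *BCL2L1* the pair that stood apart was wt below cis SSP -SG carbo, and for *BID* the pairs were wt -SG below cis -SG carbo and wt carbo below cis. The conditions were sorted by the same values, and the share over all genes was not computed, so these numbers of pairs do not rank the genes. Depth differed too, with mean counts per library from 8.8 for *BIK* to 10540 for *MCL1*.

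**Figure D2:**
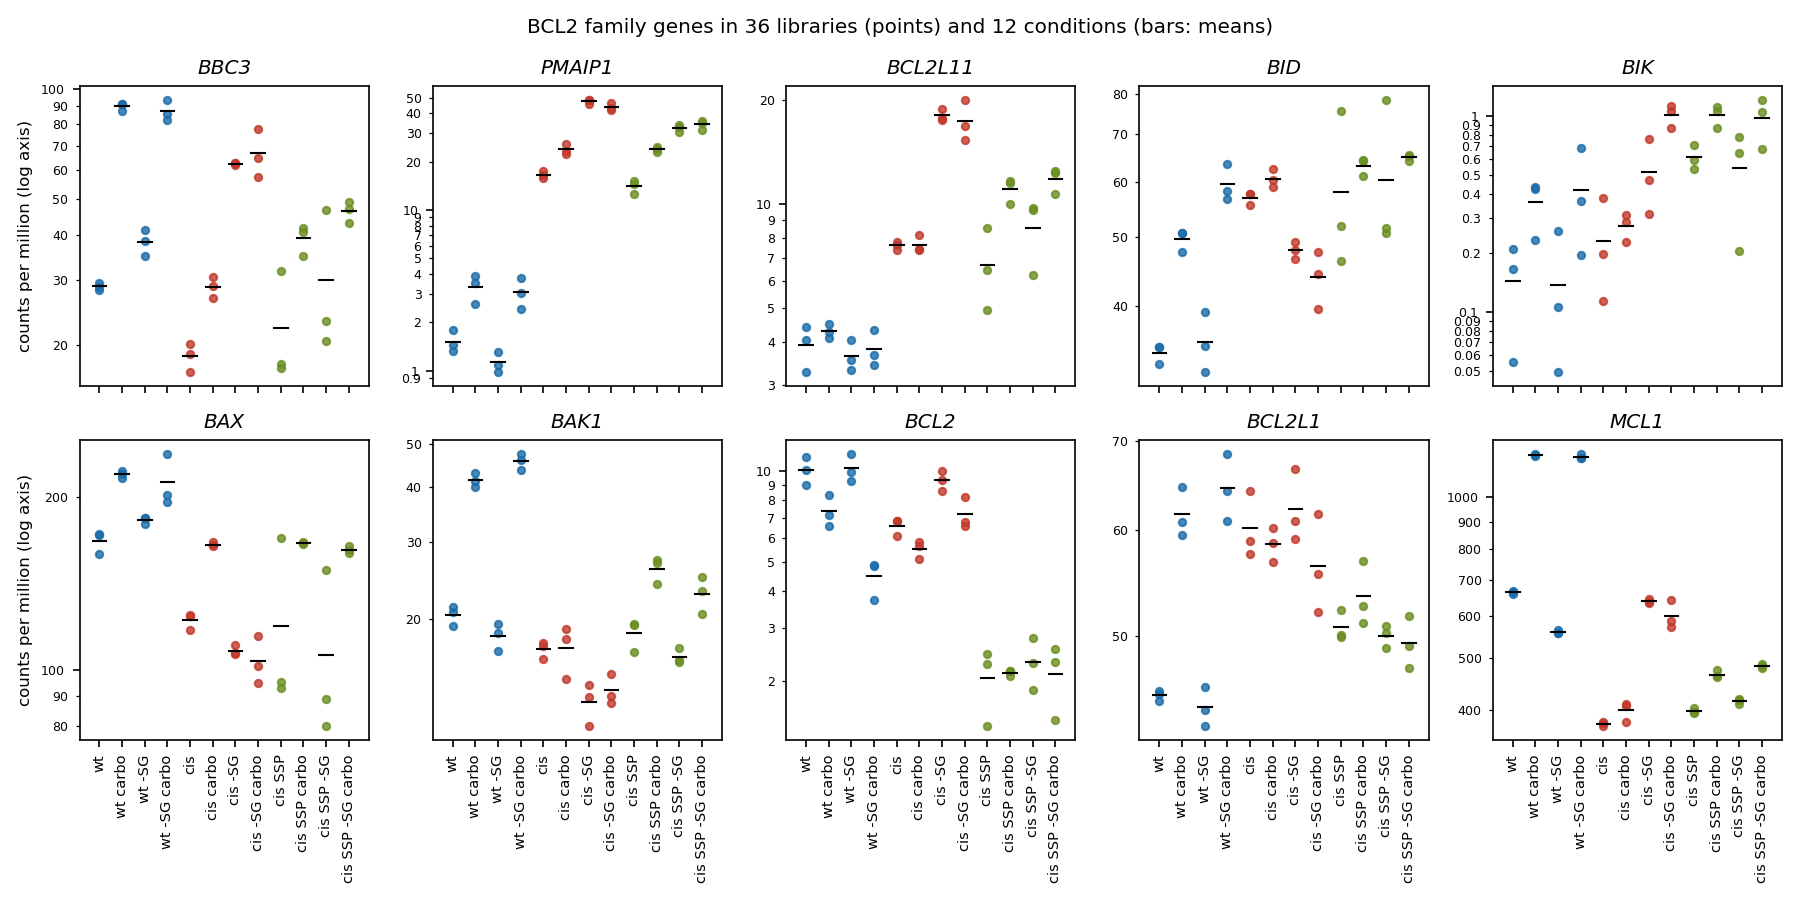
Levels in CPM (log axis, a separate scale in each panel) of each gene in the 36 libraries, with wt in blue, cis in red and cis SSP in green, and a black bar for the mean of each condition. All 12 wt libraries of *PMAIP1* lie under 4 and all cis libraries at 15.9 or more, and in cis SSP a single library often lies away from its pair, as for *BAX* at 169.8 against 93.0 and 95.4.

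Untreated cis cells were first compared with untreated wt cells, in complete medium. *PMAIP1* was 10.7-fold higher in cis cells, and the other BH3-only genes were split: *BCL2L11* and *BID* were higher and *BBC3* was lower. Both effectors and the guardians *BCL2* and *MCL1* were lower, whereas *BCL2L1* was higher. Of the 9 genes tested, 9 were called, 4 of them higher and 5 lower, beside 78.5% of all 14431 genes tested, so the count itself sets these genes little apart. Their median absolute log2 fold change was 0.67, against 0.44 over all genes. In bulk RNA, fewer cells of a type and less RNA per cell cannot be told apart.

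*PMAIP1* had 1.44, 1.33 and 1.78 CPM in the wt libraries and 15.9, 17.6 and 16.4 in the cis libraries. The groups were far apart, and the log2 fold change was 3.41 ± 0.13 (SE, adjusted p = 2.79e-27). *BCL2L11* had 3.27, 4.05 and 4.41 CPM in wt and 7.39, 7.79 and 7.61 in cis cells, a log2 fold change of 0.92 ± 0.13. *BCL2L11* shares 727 bases with the antisense transcript *MIR4435-2HG*, which had 150% of its counts over all libraries, and since the strand setting of the counting is not stated, part of its reads may belong there. That transcript moved the other way, from a mean of 20.1 CPM in wt to 13.2 in cis cells. *BID* rose from 34.9, 34.96 and 33.1 to 57.6, 55.6 and 57.7 CPM, by 0.70 ± 0.047 on the log2 scale. The only BH3-only gene that was lower was *BBC3*, with 29.6, 28.9 and 28.3 CPM in wt and 20.1, 18.9 and 16.9 in cis cells (log2 fold change -0.67 ± 0.066). *BIK*, with 1 to 4 counts in wt and 2 to 7 in cis libraries, was not tested.

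Among the effectors, *BAX* stood at 159, 171 and 172 CPM in wt and at 124, 124 and 117 in cis cells, a log2 fold change of -0.49 ± 0.033. *BAK1* differed least, with 19.3, 20.7 and 21.4 against 16.2, 17.6 and 17.3 CPM (-0.29 ± 0.070, adjusted p = 2.39e-04), and its libraries too did not overlap. *BAK1P1*, a processed pseudogene of *BAK1*, held 6.20% as many counts, and reads could have been split between both. *MCL1* was at 667, 660.2 and 664 CPM in wt and at 372, 378 and 379 in cis cells. This log2 fold change of -0.85 ± 0.023 had the smallest adjusted p of the family (8.11e-33). *BCL2* was lower by -0.64 ± 0.11 and *BCL2L1* higher by 0.38 ± 0.045. Set against each other per length, *MCL1* exceeded *PMAIP1*, whose product binds it, by a mean ratio of 156 in wt cells (131 to 174) and of 7.96 in cis cells (7.55 to 8.23).

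**Figure D3:**
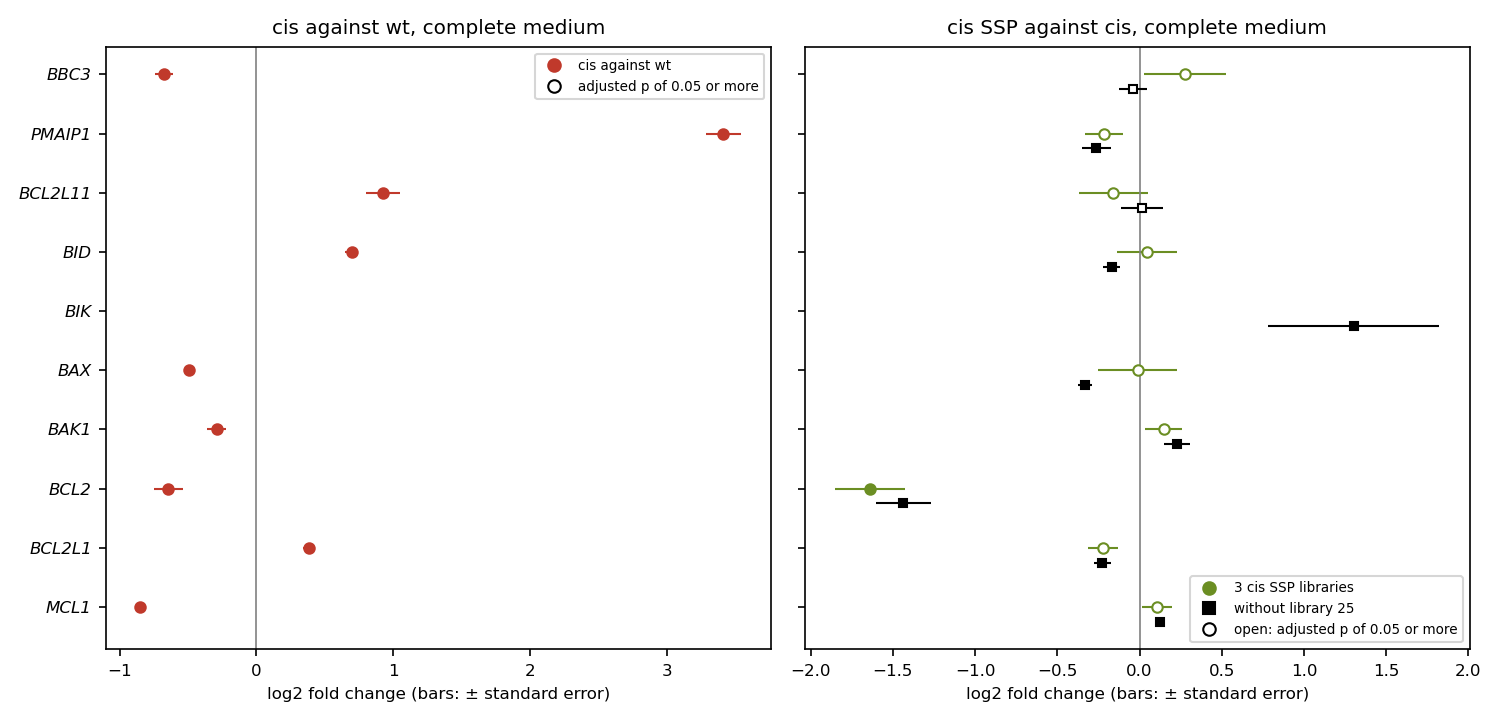
Log2 fold changes with standard errors of the family, cis against wt (left) and cis SSP against cis (right), both in complete medium, where filled points passed an adjusted p of 0.05. *PMAIP1* at 3.41 is the farthest from 0 on the left, and on the right *BCL2* at -1.64 is the only gene that passed with all libraries, while more passed without library 25 (squares).

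The cells that had grown out without serine and glycine were then compared with the cis cells they came from, both in complete medium. *BCL2* was lower in cis SSP cells, and no other gene of the family passed the test with all libraries. It had 6.07, 6.82 and 6.82 CPM in cis and 1.41, 2.45 and 2.28 in cis SSP cells, so the groups were clearly separate, and the log2 fold change was -1.64 ± 0.21 (adjusted p = 0.00276). Without library 25 it was -1.44 (adjusted p = 2.39e-09). Of the 9 genes tested 1 was called, beside 29.1% of all genes. Library 25 had the lowest *BCL2* and the highest *BAX*, *BBC3* and *BID* of the 3 cis SSP libraries, with 169.8 CPM of *BAX* against 93.0 and 95.4 in the others. Without it 8 of 10 genes were called, beside 65.4% of all genes. *BAX* (-0.33), *PMAIP1* (-0.26), *BCL2L1* (-0.23) and *BID* (-0.17) were then lower, and *BAK1* (0.22) and *MCL1* (0.13) were higher. The 8 also include *BIK* (1.30, on 9 and 11 counts against 2 to 7), which was not tested with all libraries. It passed the count filter here only through the cis SSP libraries, where it was higher, so its call is not read as a result. The direction of *BID* turned, from 0.04 with library 25 to -0.17 without it (adjusted p = 0.00542). *PMAIP1* stayed high in cis SSP cells, at 15.2, 14.5 and 12.6 CPM.

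Carboplatin raised most of the family in wt cells. *BBC3* rose the most, 3.14-fold, followed by *PMAIP1*, *BAK1* and *MCL1*, and *BCL2* fell. Of the 9 genes tested, 8 were called, beside 77.8% of all 14639 genes, and 7 of them were higher, beside 38.9% of all genes called higher. The median log2 fold change of the 9 genes was 0.55, against 0.00 over all genes.

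*BBC3*, the gene of PUMA, had 29.6, 28.9 and 28.3 CPM in untreated and 91.0, 90.7 and 87.3 in treated wt cells. The gap was many times the spread within either group, at a log2 fold change of 1.65 ± 0.042 (adjusted p = 2.53e-186). *PMAIP1*, the gene of NOXA, rose from 1.44, 1.33 and 1.78 to 3.52, 3.86 and 2.62 CPM (1.14 ± 0.19), on 24 to 65 counts per library. *BID* rose by 0.55 ± 0.047, and *BCL2L11* did not pass the test, at 3.27, 4.05 and 4.41 against 4.495, 4.10 and 4.25 CPM (0.15 ± 0.14, 95% interval -0.13 to 0.43). *BIK* had 3, 1 and 4 counts in untreated and 8, 7 and 4 in treated libraries, too few to test. *BAK1* went from 19.3, 20.7 and 21.4 to 43.0, 41.2 and 40.1 CPM, a log2 fold change of 1.04 ± 0.055. *BAX* went from 159, 171 and 172 to 219.5, 222 and 216 (0.40 ± 0.025), a smaller change between groups that also did not overlap. Of the guardians, *MCL1* rose from 667, 660.2 and 664 to 1199, 1195 and 1205 CPM. The groups lay far apart beside the spread within either, and the log2 fold change was 0.87 ± 0.018 (adjusted p = 3.82e-236). *BCL2L1* rose by 0.47 ± 0.042. *BCL2* moved the other way, from 9.02, 11.2 and 10.1 to 8.34, 7.12 and 6.58 CPM (-0.43 ± 0.10, adjusted p = 2.57e-05). In a single fit over the 36 libraries, whose shared spread is larger, *BAX* had an adjusted p of 0.0521.

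In cis cells carboplatin called 4 of the 9 genes tested, all higher, beside 20.1% of all 13458 genes. These were *BBC3*, *PMAIP1*, *BAX* and *MCL1*. *BBC3* went from 20.1, 18.9 and 16.9 to 26.9, 30.8 and 28.99 CPM, a range that takes in the untreated wt libraries, at a log2 fold change of 0.66 ± 0.072 (adjusted p = 8.95e-08). *PMAIP1* rose from 15.9, 17.6 and 16.4 to 25.9, 23.4 and 22.3 (0.55 ± 0.073), and *BAX* from 124, 124 and 117 to 165, 164 and 167 (0.46 ± 0.033). For *MCL1* the change was small, from 372, 378 and 379 to 409.8, 379.6 and 406 CPM (0.11 ± 0.027, adjusted p = 0.00368). *BAK1* had 16.2, 17.6 and 17.3 without and 18.04, 14.6 and 18.9 CPM with carboplatin (0.05 ± 0.081, interval -0.11 to 0.21). *BCL2* (-0.24 ± 0.12) and *BID* (0.12 ± 0.044) did not overlap between the groups but did not pass the test, at adjusted p of 0.176 and 0.0631. In the single fit over all libraries only *PMAIP1* was called, beside 2.40% of all genes.

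Whether both lines differed in their response was tested by the interaction of line and carboplatin. The response was smaller in cis cells for 6 of the 9 genes tested and larger for none that passed, beside 57.6% of all genes called and 27.2% called lower. The genes were *BBC3* (-0.99 ± 0.082), *BAK1* (-0.98 ± 0.097), *MCL1* (-0.75 ± 0.032), *PMAIP1* (-0.59 ± 0.21), *BCL2L1* (-0.47 ± 0.061) and *BID* (-0.43 ± 0.063), each as the log2 response of cis minus that of wt cells. The difference of *PMAIP1* had an adjusted p of 0.0524 without wt replicate 2 and 0.0569 without wt carbo replicate 2, and that of *BID* 0.0862 in the single fit. *PMAIP1* rose less on the log2 scale but from a higher level, so that its treated level was 2.62 to 3.86 CPM in wt and 22.3 to 25.9 in cis cells. For *BAX* the difference was 0.07 ± 0.043 with a 95% interval from -0.02 to 0.15, the narrowest of the 3 genes that did not pass. *BCL2* (0.20 ± 0.16) and *BCL2L11* (-0.12 ± 0.18) did not pass either, with wider intervals of -0.12 to 0.52 and -0.46 to 0.23.

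In cis SSP cells *PMAIP1* was the only gene called under carboplatin, 1 of 10 tested beside 2.72% of all genes. It rose from 15.2, 14.5 and 12.6 to 22.9, 24.7 and 23.9 CPM (0.75 ± 0.11, adjusted p = 0.0274). This call was lost when any of the other 5 libraries was left out (adjusted p 0.105 to 0.187), and not when library 25 was. *BAK1* in the 3 treated libraries lay above the untreated ones, going from 16.8, 19.4 and 19.4 to 24.04, 27.3 and 26.8 CPM, and did not pass the test (0.48 ± 0.11, adjusted p = 0.085). Without library 25, 7 of 10 genes were called, all higher, beside 41.2% of all genes: *BBC3* (1.16), *BAX* (0.82), *PMAIP1* (0.82), *BCL2L11* (0.57), *BAK1* (0.42), *BID* (0.36) and *MCL1* (0.22). *BAX* was at 166, 167 and 166 CPM with carboplatin, against 169.8 in library 25 and 93.0 and 95.4 in the others. The responses of cis SSP cells were not tested against those of the other lines.

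**Figure D4:**
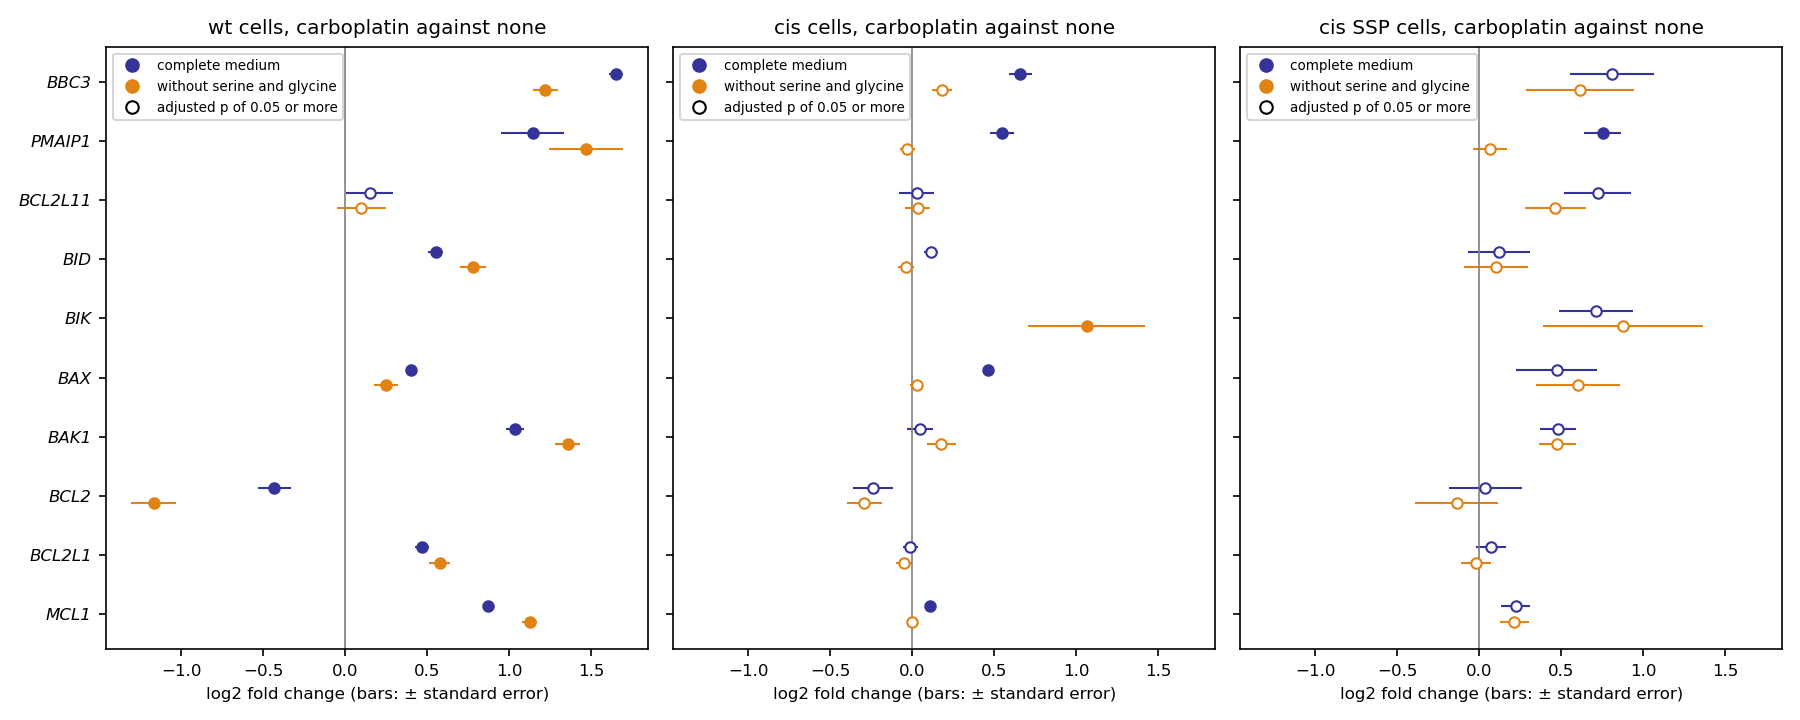
Log2 fold changes with standard errors of the 10 genes under carboplatin in wt, cis and cis SSP cells, in complete medium (blue) and without serine and glycine (orange); filled points passed an adjusted p of 0.05, and genes under the count filter are not drawn. In wt cells 7 genes passed above 0 and *BCL2* below it in both media, and in cis cells the points without serine and glycine lie between -0.29 and 0.18 for all genes but *BIK*.

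Withholding serine and glycine moved *BBC3*, *BAX* and *MCL1* in wt cells. Of the 9 genes tested, 3 were called, beside 49.2% of all 14284 genes. *BBC3* rose from 29.6, 28.9 and 28.3 to 34.9, 38.4 and 41.3 CPM (0.41 ± 0.059, adjusted p = 8.85e-06). *MCL1* fell from 667, 660.2 and 664 to 564, 556 and 556 (-0.24 ± 0.021), and *BAX* rose slightly, to 184, 179 and 184 (0.13 ± 0.032). In the single fit only *MCL1* was called, with adjusted p of 0.181 for *BBC3* and 0.677 for *BAX*. *PMAIP1* had 0.98, 1.31 and 1.09 CPM, below the untreated libraries, and did not pass the test (-0.42 ± 0.24, adjusted p = 0.159).

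In cis cells the same medium changed most of the family. *BBC3*, *PMAIP1* and *BCL2L11* rose 3.43-, 2.91- and 2.42-fold, *MCL1* and *BCL2* rose as well, and *BAX*, *BAK1* and *BID* fell. Of the 9 genes tested, 8 were called, beside 75.0% of all 14122 genes, and 5 were higher, beside 37.6% of all genes called higher. Of the BH3-only genes, *BBC3* went from 20.1, 18.9 and 16.9 to 62.7, 62.6 and 62.1 CPM. The 3 deprived libraries hardly differed among themselves, and the log2 fold change was 1.78 ± 0.056 (adjusted p = 1.85e-30). *PMAIP1* went from 15.9, 17.6 and 16.4 to 48.6, 46.0 and 48.1 (1.54 ± 0.060), the highest level of this gene in the series. *BCL2L11* went from 7.39, 7.79 and 7.61 to 17.8, 17.6 and 18.9 CPM (1.28 ± 0.086), while its antisense neighbour *MIR4435-2HG* went from a mean of 13.2 to 6.49. *BID* fell from 57.6, 55.6 and 57.7 to 46.5, 49.2 and 48.0 (-0.22 ± 0.045). The effectors *BAK1* (16.2, 17.6 and 17.3 to 11.4, 14.2 and 13.3, -0.38 ± 0.081) and *BAX* (124, 124 and 117 to 107, 106 and 110.3, -0.15 ± 0.035) were lower. *MCL1* rose from 372, 378 and 379 to 637, 645 and 634 CPM (0.79 ± 0.027, adjusted p = 2.67e-29), just below the 660.2 to 667 of untreated wt cells. *BCL2* rose from 6.07, 6.82 and 6.82 to 10.0, 9.36 and 8.61 (0.53 ± 0.11), and *BCL2L1* did not pass the test (0.07 ± 0.047, interval -0.02 to 0.16). The *MCL1* to *PMAIP1* ratio per length was 4.60 to 4.93 in these libraries. The fall of *BAX* was lost with the length trend removed (adjusted p = 0.0614) and, as was that of *BID*, in the single fit (0.321 and 0.0834).

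The interaction of line and medium was called for 7 of 9 genes, beside 54.0% of all genes. The response of cis cells was higher than that of wt cells for *PMAIP1* (1.97 ± 0.23), *BCL2L11* (1.40 ± 0.17), *BBC3* (1.39 ± 0.083), *MCL1* (1.04 ± 0.032) and *BCL2* (0.50 ± 0.15), and lower for *BAX* (-0.27 ± 0.047) and *BID* (-0.26 ± 0.074). *MCL1* and *BAX* were called in both lines with opposite signs. The single fit lost the differences of *BAX*, *BCL2* and *BID* (adjusted p of 0.320, 0.0800 and 0.203). For *BAK1* (-0.21 ± 0.11) and *BCL2L1* (0.11 ± 0.067) the difference did not pass, with intervals of -0.42 to 0.01 and -0.02 to 0.24.

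In cis SSP cells no gene of the family was called for the same medium, of 10 tested, beside 0.0218% of all genes. At an unadjusted p under 0.05 edgeR gave 1 gene, and DESeq2 called 1; in both it was *PMAIP1*, which went from 15.2, 14.5 and 12.6 to 30.8, 33.8 and 32.9 CPM (1.20 ± 0.13, adjusted p = 0.0928). These groups did not overlap, and the level was below that of deprived cis cells. *BBC3* had 20.5, 46.8 and 23.2 CPM, of which the 46.8 was library 32, and *BAX* had 79.8, 149 and 88.8, again with library 32 highest. With both libraries 25 and 32 left out, 5 of 10 genes were called, beside 35.9% of all genes. *PMAIP1* (1.23), *BCL2L11* (0.37) and *BBC3* (0.31) were then higher, and *BAK1* (-0.24) and *BAX* (-0.17) lower. *MCL1* did not pass in either fit, at 394, 396 and 403 CPM in complete medium and 418, 419 and 410.4 without serine and glycine.

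**Figure D5:**
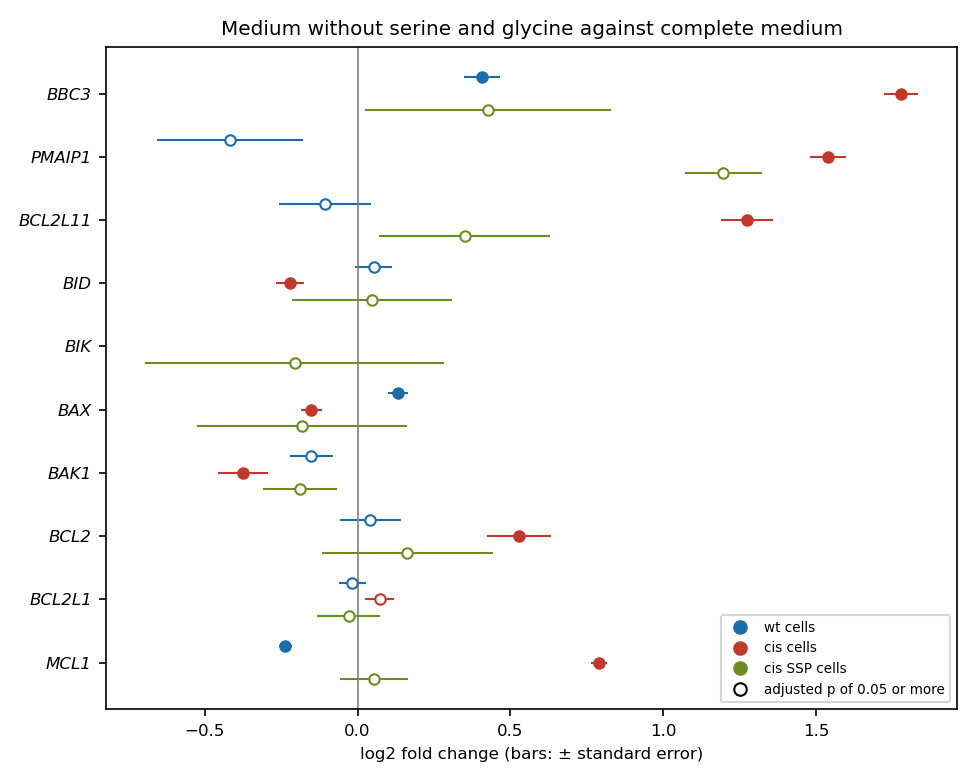
Log2 fold changes with standard errors of the family in medium without serine and glycine against complete medium, in wt (blue), cis (red) and cis SSP cells (green), where filled points passed an adjusted p of 0.05. For *BBC3*, *PMAIP1*, *BCL2L11*, *MCL1* and *BCL2* the cis point lies to the right of the wt point, and no cis SSP point is filled.

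Carboplatin was also given in medium without serine and glycine. In wt cells 8 of 9 genes were again called, beside 68.9% of all genes, with 7 higher beside 34.3% of all genes. *BAK1* went from 18.6, 16.9 and 19.5 to 47.6, 43.7 and 46.2 CPM (1.36 ± 0.074, adjusted p = 2.66e-07). *MCL1* rose from 564, 556 and 556 to 1185, 1208 and 1185 (1.13 ± 0.046), and *BBC3* from 34.9, 38.4 and 41.3 to 82.1, 93.5 and 85.3 (1.22 ± 0.077). *BAX* (0.25 ± 0.074) lost its call without wt -SG replicate 2 (adjusted p = 0.0606) or replicate 3 (0.0541) and in the single fit (0.227). *BCL2* fell from 11.4, 9.94 and 9.25 to 4.86, 3.73 and 4.82 (-1.17 ± 0.14). Compared with the response in complete medium, those of *BAK1* (difference 0.31 ± 0.090) and *MCL1* (0.25 ± 0.043) were larger, the rise of *BBC3* was smaller (-0.43 ± 0.086) and the fall of *BCL2* was deeper (-0.74 ± 0.18). These were 4 of 9 genes, beside 27.7% of all genes. Without library 11, of wt -SG carbo, 5 of 9 were called, beside 34.2% of all genes. In the single fit *BBC3* (adjusted p = 0.404) and *BAK1* (0.0920) were lost. *BAK1* was also lost with the length trend removed (difference 0.20, adjusted p = 0.15) and without wt -SG replicate 2 (0.0525) or wt replicate 3 (0.0509). The treated levels of *MCL1* and of *BBC3* overlapped between both media, and the untreated levels did not.

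In cis cells carboplatin brought few calls once serine and glycine were withheld. Of the 10 genes tested only *BIK* was called, beside 22.5% of all genes. It had 6, 14 and 9 counts without and 15, 19 and 21 counts with the drug (1.06 ± 0.36, adjusted p = 0.0459). *BIK* passed the count filter only through the treated libraries, where it was higher, so this call is not read as a result. This call was lost without any of 5 of the 6 libraries (adjusted p 0.0511 to 0.193). DESeq2 called none of the family here. Leaving out libraries 23 and 24 left library 22 as the only treated one. The log2 fold change was then 0.75 for *BIK* and 0.33 for *BBC3*. *PMAIP1* had 48.6, 46.0 and 48.1 CPM without and 46.5, 41.7 and 43.1 with carboplatin (-0.03 ± 0.046, interval -0.12 to 0.06). *BAX*, at 107, 106 and 110.3 against 114, 94.8 and 102, did not pass either (0.03 ± 0.040). *BCL2* had 10.0, 9.36 and 8.61 CPM without and 8.22, 6.56 and 6.75 with the drug. These groups did not overlap, and the log2 fold change of -0.29 fell just short of the threshold (adjusted p = 0.0605). *BBC3* was as close to it (0.18, adjusted p = 0.0606), though its groups overlapped. Against complete medium the responses of *PMAIP1* (-0.57 ± 0.085), *BBC3* (-0.47 ± 0.11) and *BAX* (-0.43 ± 0.052) were lower, 3 of 10 genes beside 12.1% of all genes. Without libraries 23 and 24 these differences were -0.58 for *PMAIP1*, -0.34 for *BBC3* and -0.38 for *BAX*. They then rested on library 22 alone for cis -SG carbo. None of the 3 was called in a single fit over all 36 libraries.

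In cis SSP cells no gene passed for carboplatin without serine and glycine, of 10 tested, beside 1.47% of all genes; 2 had an unadjusted p under 0.05 and DESeq2 called 0. *BAX* was at 162, 159.8 and 164 CPM with carboplatin and *BAK1* at 20.5, 24.9 and 23.1, both above each deprived library (0.60 ± 0.25 and 0.48 ± 0.11). Without library 32, 6 of 10 genes were called, all higher, beside 41.1% of all genes: *BBC3* (1.11), *BAX* (0.96), *BAK1* (0.48), *BID* (0.36), *BCL2L11* (0.31) and *MCL1* (0.24). *PMAIP1* was not among them, at 30.8, 33.8 and 32.9 against 31.6, 35.8 and 34.9 CPM (0.12 without library 32, adjusted p = 0.163).

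Genes around the family were counted from 4 lists, each read against the share of all genes called in the same comparison; over all genes tested the median log2 fold change was within 0.0225 of 0 in each comparison. The wider BCL2 family has 15 genes, of which 11 were tested. Under carboplatin in wt cells 11 were called, 3 higher and 8 lower, beside 77.8% of all genes, with a median log2 fold change of -0.10. The BH3-only gene *BMF* rose (1.36 ± 0.15) and the BH3-only gene *HRK* fell (-1.65 ± 0.35). *HRK* had 21 to 25 counts per untreated and 6 to 8 per treated library, so it passed the count filter through the untreated ones. In cis cells without serine and glycine 8 of 11 were called, 5 of them higher (median 0.20), beside 75.0% of all genes. *HRK* (3.75 ± 0.13) rose more than any gene of the 10, from 17 to 32 counts per library in complete medium to 339 to 375. The BH3-only gene *BAD* fell (-1.21 ± 0.11). Between cis and wt cells 9 of 11 were called, 2 higher and 7 lower (median -0.28), beside 78.5% of all genes, with *BOK*, a relative of the effectors, higher (0.84 ± 0.044) and the mitophagy receptor *BNIP3L* lower (-1.38 ± 0.036). Between cis SSP and cis cells 5 of 11 were called, all higher (median 0.47), beside 29.1% of all genes, with *HRK* (1.29 ± 0.26) and *BMF* (1.06 ± 0.20) among them. Without library 25, 7 of 11 were called, 6 higher and 1 lower, beside 65.4% of all genes, and *HRK* (1.41 ± 0.22) and *BMF* (1.21 ± 0.20) were still higher.

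Another list had 18 genes, of caspases, their activators and inhibitors, and mitochondrial proteins. It includes *CASP8* and *CASP10*, which act at the death receptors, so not all lie downstream of the mitochondria. Under carboplatin in wt cells 18 were called, 8 higher and 10 lower (median -0.09), beside 77.8% of all genes. The inhibitor of apoptosis *BIRC3* rose (4.50 ± 0.044) and *BIRC5*, the gene of survivin, fell (-2.00 ± 0.065). In cis cells without serine and glycine 13 of 18 were called, 4 higher and 9 lower (median -0.24), beside 75.0% of all genes, and *APAF1*, which builds the apoptosome, fell (-1.27 ± 0.066). *CASP10*, an initiator caspase of the death receptors, was higher in cis than in wt cells (3.31 ± 0.13), and 12 of the 18 genes were higher there and 1 lower, beside 39.4% and 39.1% of all genes. Of 6 death receptor genes, 5 were tested and 5 rose under carboplatin in wt cells (median 0.95), beside 38.9% of all genes called higher, *FAS* the most (3.04 ± 0.051). In cis cells 4 of 5 rose (median 0.17), beside 9.27% of all genes, and the response of *FAS* was smaller than in wt cells (difference -2.86 ± 0.079). In cis cells without serine and glycine 4 of 5 rose (median 0.37), beside 37.6% of all genes, among them *TNFRSF10B*, a receptor for TRAIL (0.88 ± 0.027).

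Of 10 upstream regulators, all tested, 10 were called under carboplatin in wt cells, 5 in each direction (median 0.04), beside 77.8% of all genes. *CDKN1A*, an inhibitor of cyclin-dependent kinases (3.67 ± 0.021), and *MDM2*, a ubiquitin ligase (1.81 ± 0.023), rose and *E2F1* fell (-1.60 ± 0.059). In cis cells *CDKN1A* (1.83 ± 0.030) and *MDM2* (0.49 ± 0.031) rose too, each less than in wt cells (differences -1.84 ± 0.035 and -1.32 ± 0.038), and *CDKN1A* rose in cis SSP cells (2.70 ± 0.11, and 2.78 ± 0.034 without library 25). Without serine and glycine 10 of 10 were called in cis cells, 8 of them higher (median 0.59), beside 75.0% of all genes; *DDIT3* (1.38 ± 0.053) and *TRIB3* (1.37 ± 0.029), both of the integrated stress response, led and the transcription factor *TP73* fell (-0.87 ± 0.076). *TP73* was higher in cis than in wt cells (2.29 ± 0.095). Between cis SSP and cis cells *DDIT3* (-1.73 ± 0.30) and *TRIB3* (-1.57 ± 0.11) were lower, as they were without library 25 (-2.16 ± 0.099 and -1.65 ± 0.040).

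For each gene the 2 genes with the most similar pattern over the 12 condition means were listed, as Pearson's r of log2 levels among 11468 genes with a mean of at least 50 counts. The points share the lines and media, and the best of so many genes is high by selection, so these values are a description. The nearest to *PMAIP1* were *LRATD2* (0.984) and *PYGL* (0.982), to *BBC3* *MST1* (0.976) and *H4C8* (0.971), and to *BCL2L11* *POGK* (0.971) and *DAAM1* (0.967). *MCL1* was nearest to *DNAJB6* (0.982), *BAK1* to *KCTD10* (0.984), *BCL2* to *MIOS* (0.986), *BCL2L1* to *FKBP1A* (0.963) and *BID* to *UFD1* (0.973). *BAX* had the lowest best value, 0.932 with *POLR3A*, and *BIK*, whose counts were few, was nearest to *MT2A* (0.951).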

How the data were processed

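Messenger RNA was sequenced as single reads in 36 libraries, and the deposited table holds raw counts per gene, which the authors made with STAR on GRCh37.p13 (hg19) and HTSeq on GENCODE exons. The strand setting is not given in the sources used here. Of 57820 gene identifiers, 55538 matched a symbol in GENCODE mapped to GRCh37, and 3 rows that name no gene were left out (no-feature reads were 4.21% to 17.9% of a library).

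Counts were tested with edgeR 4.0.16 in R 4.3.3 (TMM, filterByExpr, robust quasi-likelihood fit on only the groups compared), as 11 comparisons of 2 conditions and 4 interactions, with Benjamini-Hochberg adjustment over all genes tested and a threshold of 0.05. The study used DESeq2; the interactions and the comparisons without serine and glycine follow from the design of the samples. Standard errors are the absolute log2 fold change over the square root of F, and 95% intervals are 1.96 SE. Counts were scaled to a common library size (CPM) with TMM over all libraries. Levels per kb use the union of exons in a later GENCODE release than the one the authors counted on. The code was tested on simulated data. DESeq2 1.42.0, other scalings and filters, a fold threshold, a length trend removed, a single fit of all libraries, and left-out libraries were alternatives. Named were all 10 members, and at most 2 called genes per direction, by size of change, from each other list. The members and lists were chosen with earlier results of these data known. Limits of depth cover counting error only. The result of 1 listed regulator is not reported here.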

Additional observations from a re-analysis of the deposited data

Results flagged for a closer look

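Differences between groups in the same contrast passed the test of the interaction for 20 gene and contrast pairs, given here as the difference between 2 log2 fold changes. With groups of 3 libraries, single libraries were not tested as outliers.

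The response to carboplatin of cis cells minus that of wt cells was -0.982 for *BAK1*, -0.9854 for *BBC3*, -0.7541 for *MCL1*, -0.5887 for *PMAIP1*, -0.4747 for *BCL2L1* and -0.4311 for *BID*. The response to withheld serine and glycine, cis minus wt, was 1.973 for *PMAIP1*, 1.397 for *BCL2L11*, 1.388 for *BBC3*, 1.042 for *MCL1*, 0.5024 for *BCL2*, -0.258 for *BID* and -0.2671 for *BAX*.

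The response to carboplatin without serine and glycine minus that in complete medium was, in wt cells, 0.3134 for *BAK1*, 0.2474 for *MCL1*, -0.4343 for *BBC3* and -0.7449 for *BCL2*. In cis cells it was -0.4306 for *BAX*, -0.4746 for *BBC3* and -0.5742 for *PMAIP1*. Libraries 23 and 24, of cis -SG carbo, which have the highest share of reads on no feature, enter these 3 values. Without them only library 22 was left in that condition. The values were then -0.3765 for *BAX*, -0.3402 for *BBC3* and -0.5784 for *PMAIP1*.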

How the results depend on the processing

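No paired analysis was possible because the labels give no replicate numbers. Counts are of family genes called, with the share of all genes called in the same fit in brackets. For the threshold on the fold change that share was not computed. With a log2 fold change of at least 1 they were 1 for cis against wt; for carboplatin 3 in wt, 0 in cis, 0 in cis SSP and 5 in wt -SG; for -SG 0 in wt and 3 in cis; and for interactions 0 (line by carboplatin), 4 (line by -SG), 0 (medium, wt) and 0 (medium, cis). In a single fit of all libraries they were 4 for cis SSP against cis (47.8%). For carboplatin this fit gave 1 in cis (2.4%), 5 in cis SSP (18.5%), 0 in cis -SG (6.84%) and 5 in cis SSP -SG (17.1%). For -SG it gave 1 in wt (16.9%) and 1 in cis SSP (9.17%). For interactions it gave 4 for line by -SG (29.3%), 2 for medium in wt (9.2%) and 0 for medium in cis (0.672%). With the length trend removed they were 2 for cis SSP against cis (35.4%). For carboplatin they were then 2 in cis SSP (5.21%), 2 in cis -SG (22.7%) and 1 in cis SSP -SG (3.71%). DESeq2 gave 2 for carboplatin in cis SSP (4.39%), 1 for -SG in cis SSP (0.723%) and 0 for carboplatin in cis -SG (11.9%). For the last of these, total counts without TMM gave 2 (21.7%), no filter 3 (13.3%) and a minimum of 10 counts 0 (23.4%). Leaving out both libraries 25 and 32 gave 5 for -SG in cis SSP (35.9%). The cause was not tested.

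Each replicate was left out in turn, with the share of all genes called in brackets. Cis against wt gave 9 to 9 (75.3% to 76.9%) and cis SSP against cis 1 to 8 (14.3% to 65.4%). Carboplatin gave 8 to 8 in wt (74.2% to 75.2%), 4 to 4 in cis (12.8% to 18.7%) and 0 to 7 in cis SSP (0.0636% to 41.2%). Withheld serine and glycine gave 3 to 4 in wt (41.9% to 48.3%), 8 to 9 in cis (71.8% to 72.8%) and 0 to 0 in cis SSP (0%). Carboplatin without serine and glycine gave 7 to 8 in wt (63% to 73.3%), 0 to 2 in cis (11.3% to 34.7%) and 0 to 6 in cis SSP (0% to 41.1%). Line by carboplatin gave 5 to 6 (54.1% to 55.6%) and line by -SG 7 to 8 (50.1% to 52%). Medium gave 3 to 5 in wt (22.2% to 34.2%) and 3 to 5 in cis (8.75% to 23.4%). *BID* in cis SSP against cis ranged from -0.1697 without cis SSP replicate 1 to 0.1709 without replicate 2. Of the values of single genes, DESeq2's size factors left all 140 on their side of the threshold and its Wald test 135 of 139. The single fit of all libraries left 109, with 19 calls lost and 12 gained. Removing the length trend left 131, with 3 calls lost and 6 gained. Over the fits without 1 replicate 1014 values stayed, 16 calls were lost, 30 were gained and 1 value reversed. *BIK*, with 1 to 21 counts per library, is limited by depth.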

Other observations

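The ratio of *MCL1* to *PMAIP1* per length separated wt cells from both other lines, which overlapped without serine and glycine. It was 109 to 202 in the 12 wt libraries, 4.60 to 8.23 in the 12 cis libraries and 4.35 to 11.3 in the 12 cis SSP libraries. The lowest mean, 4.50, was that of cis SSP -SG cells, next to 4.72 in cis -SG cells, and the mean without the drug in complete medium was 9.99 in cis SSP and 7.96 in cis cells.

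Libraries 25 and 32 moved in the same direction in several genes of the family. Library 32 had 149 CPM of *BAX* against 79.8 and 88.8 in the other cis SSP -SG libraries, 46.8 of *BBC3* against 20.5 and 23.2, and 78.4 of *BID* against 51.5 and 50.8. Library 25 had 169.8 of *BAX*, 31.8 of *BBC3* and 75.6 of *BID*, each above the other cis SSP libraries. For *PMAIP1* and *MCL1* the 2 libraries lay with their groups, at 33.8 and 419 in library 32 and at 15.2 and 394 in library 25.

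*BCL2* was lower in the 12 cis SSP libraries (1.41 to 2.79 CPM) than in the lowest condition of the other lines, wt -SG carbo (3.73 to 4.86 CPM).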
